A study of Mus musculus with 8 samples.

Results

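The 10 genes described here belong to the blood-brain barrier and were followed across cells from 2 brain regions of WT and *Setd1a*+/- mice, the striatum and the prefrontal cortex (PFC). The list was fixed by name and took every row of the gene table with a listed symbol, which gave 10 of 31053 genes, 1 row each. *Cldn5*, *Ocln* and *Tjp1* encode parts of the tight junction, *Slc2a1*, *Slc7a5* and *Mfsd2a* encode uptake transporters, *Slco1a4* and *Slco1c1* encode organic anion transporters, and *Abcb1a* and *Abcg2* encode efflux pumps. The data are 8 droplet-based single-cell RNA sequencing libraries, 2 WT and 2 *Setd1a*+/- for each tissue, and each library was made from the pooled tissue of 2 male C57BL/6N mice. *Setd1a*+/- mice, which the labels write as Setd1+/- and as treated with *Setd1a* CRISPR-Cas9, carry in all their cells 1 allele with a small frameshifting deletion that was made by CRISPR-Cas9 upstream of the sequence encoding the SET domain. WT mice were littermates without that allele and received no treatment. The labels give an age of 8 to 10 weeks and the methods an older range. The labels name the striatal tissue NAc, where the study's results name dorsal and ventral striatum. Papain digestion was longer for the striatum than for the PFC, so tissue and preparation cannot be told apart.

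Brain endothelial cells form a barrier in which tight junctions close the path between cells and transporters decide what passes through them. Claudin-5, occludin and the scaffold protein ZO-1 build the junction, glucose enters through the carrier encoded by *Slc2a1*, and lipophilic drugs are pumped back into the blood by the ATP-driven proteins encoded by *Abcb1a* and *Abcg2*. Vesicle traffic across the cell is kept low, for which the lysophospholipid transporter encoded by *Mfsd2a* is needed, and Wnt signals from the brain keep the barrier genes on.

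In the GRCm38 annotation (GENCODE vM21) the 10 genes are protein coding. *Cldn5* lies on the plus strand of chromosome 16 from 18776847 to 18778262, *Slco1a4* on the minus strand of chromosome 6 from 141805440 to 141856199, and *Slco1c1* on the plus strand of the same chromosome from 141524368 to 141570177. *Abcg2* spans 58584523 to 58695676 of chromosome 6 and *Abcb1a* spans 8660077 to 8748575 of chromosome 5, both on the plus strand. *Slc7a5* lies on the minus strand of chromosome 8 from 121881150 to 121907694, and *Mfsd2a* on the minus strand of chromosome 4 from 122946850 to 122961188. *Ocln* lies on the minus strand of chromosome 13 from 100496507 to 100552718, *Tjp1* on the minus strand of chromosome 7 from 65296165 to 65527781, and *Slc2a1* on the plus strand of chromosome 4 from 119108711 to 119137983. Exons of the antisense gene *Gm12868* overlap those of *Slc2a1*. *Slco1a4* and *Abcb1a* have close paralogs, and reads that match a paralog equally well could have been lost or split.

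Promoter windows of 250 bases before the RefSeq start (GRCm38.p6) were found for 9 of the 10 members, in 12 windows, and *Slc7a5* had none. The windows of *Cldn5*, *Slco1a4* and *Abcg2* are shown as examples of genes that differed between arterial- and venous-marker cells or between tissues in the tests given further on. *Abcb1a* also differed between tissues, and its window is described but not shown. Capitals mark matches, on either strand, to 5 motifs: the ETS core CCGGAA, the TCF/LEF motif CTTTGA, the SOX motif ACAATG, the TATA box TATAAA and the GC box GGGCGG. Among all 32851 windows of that length, 12.0% held the ETS core, 13.8% the TCF/LEF motif, 10.7% the SOX motif, 12.4% the TATA box and 32.7% the GC box. The windows are chr16:18776597-18776846 (plus strand) for *Cldn5*, chr6:141856221-141856470 (minus strand) for *Slco1a4* and chr6:58584283-58584532 (plus strand) for the first of 3 starts of *Abcg2*, each read 5′ to 3′ along the gene.
*Cldn5*: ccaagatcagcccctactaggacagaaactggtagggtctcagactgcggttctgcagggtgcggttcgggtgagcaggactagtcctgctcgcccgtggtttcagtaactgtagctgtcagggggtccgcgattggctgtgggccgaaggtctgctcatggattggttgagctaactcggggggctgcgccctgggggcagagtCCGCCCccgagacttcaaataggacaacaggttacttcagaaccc
*Slco1a4*: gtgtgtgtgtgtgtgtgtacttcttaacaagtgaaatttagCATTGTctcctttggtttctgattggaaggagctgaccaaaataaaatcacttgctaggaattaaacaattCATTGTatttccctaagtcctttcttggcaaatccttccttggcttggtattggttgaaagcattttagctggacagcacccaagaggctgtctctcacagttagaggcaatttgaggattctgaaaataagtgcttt
*Abcg2*: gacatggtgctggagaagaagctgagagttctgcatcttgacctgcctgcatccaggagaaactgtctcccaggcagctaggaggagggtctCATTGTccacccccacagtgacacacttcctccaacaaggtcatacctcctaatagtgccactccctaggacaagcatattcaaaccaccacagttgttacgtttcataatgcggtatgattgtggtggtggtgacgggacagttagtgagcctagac
The *Cldn5* window held a GC box that begins 45 bases before the start and had a GC content of 59.6%. The *Slco1a4* window held 2 SOX matches, at 209 and 138 bases before the start, with a GC content of 39.2%, and the *Abcg2* window held 1 SOX match at 158 bases before it with a GC content of 51.2%. The median GC content over all windows was 52.4%. Of the other windows, an ETS core was found for *Ocln*, TCF/LEF matches for *Mfsd2a* and *Abcb1a*, and GC boxes for *Ocln*, *Tjp1*, *Slc2a1* and the other starts of *Abcg2*, while no window held a TATA box. The *Abcb1a* window ends at 8567090 of chromosome 5, far upstream of the GENCODE start of the gene at 8660077, and the *Tjp1* window lies within the GENCODE span of its gene. Counting at the 3′ end of transcripts does not tell which start was used.

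The files hold counts of unique molecular identifiers (UMIs), each of which stands for 1 captured transcript, and levels are given as CPM, the UMIs of a gene scaled to a common total of UMIs in the same cells. The 8 libraries held 15154268 to 26277553 UMIs, and 23687 cells were annotated by the authors, 1508 to 4361 per library. Between 35 and 116 of the annotated barcodes of a library were also annotated in another one. *Setd1a* was found at 8.45 and 11.2 CPM in the WT and 5.59 and 9.33 CPM in the *Setd1a*+/- libraries of the PFC, and at 13.4 and 15.2 against 9.16 and 12.5 CPM in the striatum, replicate 1 first. The *Setd1a*+/- library was the lower one of each same-numbered pair, but counts at the 3′ end can come from either allele and so do not check the genotype labels.

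The cells annotated as endothelial, called the endothelial group here, numbered 1562 in the PFC (157 to 599 per library) and 1998 in the striatum (238 to 632), with a median of 2082.5 to 2756 UMIs per cell. The label was checked against 14 endothelial markers, among them *Pecam1*, *Flt1*, *Cdh5* and *Tie1*, and each of them was found in every library, with a summed level of 10347 to 15608 CPM. The group also held 13 markers of mural cells (pericytes and smooth muscle), such as *Rgs5* and *Pdgfrb*, at 6368 to 7327 CPM in sum. In 764 of the 3560 cells the mural markers had more UMIs than the endothelial ones. These mural-marker cells made up 19.8 to 29.9% of the group per library, and 84 PFC and 126 striatal cells of the group lay within 2 UMIs of that cutoff. The barrier genes were lower in the mural-marker cells than in the rest of the group, but were not absent there. *Slco1a4*, for example, stood at 2400 ± 159 against 3935 ± 541 CPM in the PFC (SD, n = 4). The split itself uses endothelial markers, so a lower level of genes that follow them is in part set by the definition.

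Of the 10 genes, 9 were highest in the endothelial group of both tissues, and *Mfsd2a* was the exception. Cell types were clusters of these same cells, and so differences between types are described without a test. In the PFC, *Cldn5* stood at 1741 ± 386 CPM in the endothelial group (SD, n = 4 libraries here and for each mean below) and at 195 ± 153 CPM in microglia, the next type. The endothelial level was 8.95 times that of the next type for *Cldn5*, 8.61 times for *Ocln*, 9.52 times for *Slco1a4* and 11.9 times for *Abcb1a* in the PFC, and 10.6, 9.82, 13.3 and 16.9 times in the striatum. In none of these 8 cases did the libraries of the endothelial group overlap those of the next type. Of all UMIs of *Abcb1a* in annotated cells of the PFC and the striatum, 97.2% and 96.9% were in the endothelial group, which had 17.4% and 13.6% of the cells. The same shares were 96.8% and 96.5% for *Cldn5*, 96.6% and 96.5% for *Slco1a4*, and 95.3% and 92.0% for *Ocln*.

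**Figure D1:**
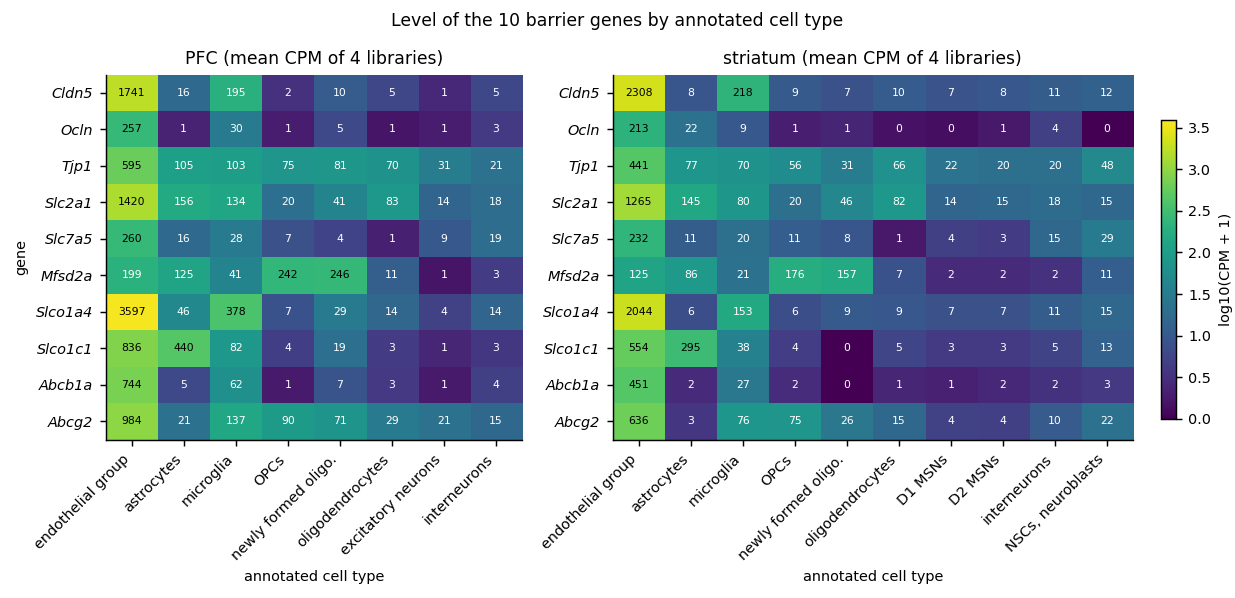
Mean level of the 10 barrier genes (rows) in each annotated cell type (columns) of the PFC and the striatum, in CPM over 4 libraries, with color on a log10(CPM + 1) scale. The endothelial column is the highest for every gene except *Mfsd2a*, and *Slco1c1* is also high in astrocytes (440 and 295 CPM).

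The remaining genes had a part of their UMIs outside the endothelial group. *Slco1c1*, which encodes a carrier of thyroid hormone, was at 440 ± 94.3 CPM in astrocytes of the PFC and 295 ± 131 CPM in those of the striatum, against 836 ± 161 and 554 ± 41.4 CPM in the endothelial group, with no overlap between the libraries of these types. At least 1 *Slco1c1* UMI was found in 56.9 ± 7.9% of PFC astrocytes, which had library medians of 1744 to 2129 UMIs per cell, and in 0.78 ± 0.35% of PFC oligodendrocytes, with medians of 1888 to 2190.5 UMIs. After each cell was thinned to 1000 UMIs the shares were 35.6 ± 4.4% and 0.42 ± 0.17%. *Slc2a1* was at 156 ± 114 and 145 ± 19.3 CPM in astrocytes of the PFC and the striatum. In oligodendrocytes it was at 82.9 ± 7.7 and 81.9 ± 22.6 CPM. The endothelial group had means of 1420 CPM (1014 to 1959) and 1265 CPM (954 to 1563). PFC microglia had 134 ± 91.7 CPM of *Slc2a1*. Free RNA, described below, had means of 106 CPM in the PFC and 94.5 CPM in the striatum, above those of oligodendrocytes. *Tjp1*, which is used by many cells with junctions, was the most widely found of the junction genes, with 67.1% and 64.4% of its UMIs in the endothelial group. It was at 105 ± 26.5 and 77.4 ± 24.9 CPM in astrocytes and at 103 ± 39.8 and 69.6 ± 13.0 CPM in microglia.

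*Mfsd2a* was found in OPCs and newly formed oligodendrocytes at mean levels above that of the endothelial group. In the PFC it was at 246 ± 88.2 CPM in newly formed oligodendrocytes, 242 ± 50.3 CPM in oligodendrocyte progenitor cells (OPCs), 199 ± 73.2 CPM in the endothelial group and 125 ± 50.7 CPM in astrocytes. In the striatum the order was 176 ± 58.6 CPM in OPCs, 157 ± 35.6 CPM in newly formed oligodendrocytes, 125 ± 51.0 CPM in the endothelial group and 85.6 ± 55.4 CPM in astrocytes. The ranges of the endothelial group and of both oligodendrocyte types overlapped over libraries in each tissue. Within a library, OPCs were above the endothelial group in 8 of 8 libraries, newly formed oligodendrocytes in 6 of 8 and astrocytes in 0 of 8. Against the endothelial group without its mural-marker cells, a count added after the values were seen, OPCs were above in 7 of 8, with 278 against 285 CPM in PFC *Setd1a*+/- replicate 1, and the counts for newly formed oligodendrocytes and astrocytes were again 6 and 0. Mature oligodendrocytes had 11.5 ± 2.1 and 7.1 ± 2.8 CPM of *Mfsd2a* in the 2 tissues, and the endothelial group held 50.8% and 46.6% of its UMIs. *Abcg2* had a smaller level in OPCs, 89.8 ± 22.1 CPM in the PFC and 75.1 ± 6.6 CPM in the striatum, and stood at 21.0 ± 2.6 CPM in excitatory neurons of the PFC against 4.2 ± 1.2 CPM in D1 medium spiny neurons of the striatum. Free RNA had means of 79.9 CPM of *Abcg2* in the PFC and 45.3 CPM in the striatum, above those of these neurons. *Slc7a5*, which encodes the light chain of a carrier of large neutral amino acids, was at 232 ± 43.9 CPM in the endothelial group of the striatum. The next type there, neural stem cells and neuroblasts, had 28.8 ± 14.4 CPM from 27 UMIs, where free RNA had a mean of 21.8 CPM.

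RNA that floats free in the cell suspension can add UMIs of endothelial genes to other cells. In barcodes with at most 100 UMIs, the 10 genes had mean levels of 15.8 to 186 CPM in the PFC and 12.3 to 153 CPM in the striatum, and the endothelial level was 6.9 to 19.8 times as high. Microglia held 8.4 to 20.5% of the endothelial levels of the 10 genes in the PFC (median 10.98%) and 4.1 to 16.9% in the striatum (median 8.2%). They held 9.2% and 7.6% of the endothelial level of the 14 endothelial markers. In the PFC the microglial mean was above that of free RNA for each of the 10 genes, as for *Slco1a4* with 378 against 186 CPM and *Cldn5* with 195 against 90.0 CPM, while in the striatum it was above for some (*Slco1a4*, 153 against 103 CPM) and below for others (*Ocln*, 8.8 against 12.3 CPM). The source of the UMIs in microglia was not tested. Ratios between 2 genes in OPCs and astrocytes were far from those of free RNA for some pairs and near them for others, and each rests on only 16 to 42 UMIs of *Slco1a4* in these types. *Mfsd2a* relative to *Slco1a4* was 34.4 in OPCs of the PFC against 0.155 in free RNA, *Abcg2* relative to *Slco1a4* was 12.7 against 0.43, and *Slco1c1* relative to *Slco1a4* was 9.5 in astrocytes against 0.41, and in the striatum these ratios were 27.5 against 0.162, 11.7 against 0.44 and 47.2 against 0.52. Near the free RNA were *Abcg2* relative to *Slco1a4* in astrocytes, at 0.455 in the PFC and 0.428 in the striatum, and *Slco1c1* relative to *Slco1a4* in OPCs, at 0.511 and 0.549.

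Within the endothelial group *Slco1a4* was found in 98.6 ± 0.3% of the cells of the PFC and 93.3 ± 2.3% of those of the striatum, and *Mfsd2a* in 36.9 ± 13.1% and 26.2 ± 10.0%. Cells without the mural-marker cells had UMIs of a median of 6 to 8 of the 10 genes per library, and 81.5 to 99.0% of the cells had UMIs of at least 5. After thinning to 1000 UMIs the median was 5 or 6 genes. Over the 18 means of annotated types in the 2 tissues, the pattern of *Slco1a4* was closest to that of *Flt1*, a receptor of vascular endothelial growth factor (Pearson's r of log2(CPM + 1), 0.990, among 11304 genes). The closest genes were *Ly6c1* for *Cldn5* (0.985), *Adgrl4* for *Abcb1a* (0.985), *Serpinb6b* for *Ocln* (0.979), *Klhl5* for *Mfsd2a* (0.968), *Pdgfrb* for *Slco1c1* (0.968), *Ggt1* for *Slc2a1* (0.967), *Rhoj* for *Tjp1* (0.9398), *Iqgap1* for *Slc7a5* (0.927) and *Ets1* for *Abcg2* (0.915). Among the members *Slco1a4* and *Abcb1a* were the most alike (0.983) and *Mfsd2a* and *Abcb1a* the least (0.359). These correlations describe type means that share libraries and sequencing depth.

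The organic anion transporter *Slco1a4* and both efflux pumps were lower in the striatum than in the PFC. *Slco1a4* was at 3574 and 3629 CPM in the WT and 3131 and 4055 CPM in the *Setd1a*+/- libraries of the PFC (replicate 1 first here and below), and at 1727, 2132, 1854 and 2462 CPM in the same order in the striatum. *Abcb1a*, the mouse counterpart of the human multidrug resistance pump, was at 1048, 622, 666 and 642 CPM in the PFC and 416, 462, 455 and 473 CPM in the striatum. *Abcg2* was at 969, 840, 972 and 1153 CPM in the PFC and 622, 654, 679 and 588 CPM in the striatum. Every striatal library was below every PFC library for these 3 genes, although 1 PFC library, WT replicate 1, was far above the others for *Abcb1a*. *Slco1c1* did not overlap either, with 1030, 676, 902 and 736 CPM in the PFC and 563, 601, 553 and 501 CPM in the striatum. Among all genes tested between the tissues, 5.72% had all 4 striatal libraries below all 4 PFC libraries, against 4 of the 10 members.

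**Figure D2:**
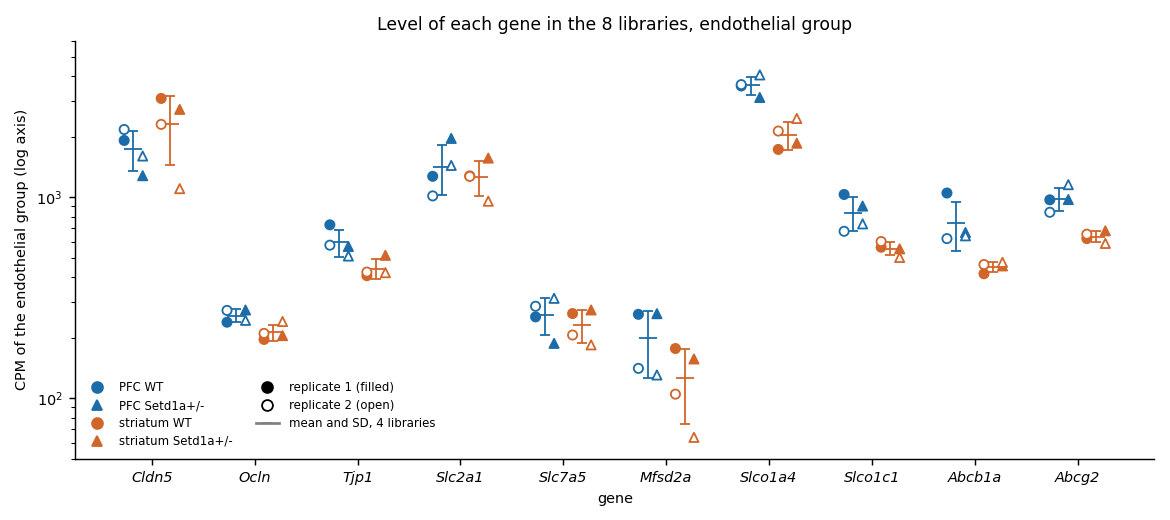
Level of each barrier gene in the endothelial group of each library, in CPM on a log axis. Circles are WT and triangles *Setd1a*+/- libraries, filled for replicate 1 and open for replicate 2, and bars are the mean and SD of 4 libraries. The tissues do not overlap for *Slco1a4*, *Slco1c1*, *Abcb1a* and *Abcg2*, and open symbols lie below filled ones for *Mfsd2a* (63.7 to 140 against 156 to 263 CPM).

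Libraries were compared with edgeR's quasi-likelihood test on UMIs summed per library, and a gene was called at an adjusted p (Benjamini-Hochberg FDR over all genes tested) under 0.05 with a fold change (FC) above 1.5. Differences are log2 values with their SE, striatum minus PFC. The p-values measure the spread between libraries, each a pool of 2 mice. *Slco1a4* differed by -0.81 ± 0.18 (adjusted p = 0.026), *Abcb1a* by -0.70 ± 0.18 (adjusted p = 0.047) and *Abcg2* by -0.61 ± 0.15 (adjusted p = 0.044). These 3 of 10 members were the ones called lower, against 0.845% of the 10652 genes tested, and 5.44% of the genes were called in either direction. *Slco1c1* (-0.58 ± 0.17, adjusted p = 0.072), *Mfsd2a* (-0.65 ± 0.31, adjusted p = 0.28) and *Tjp1* (-0.42 ± 0.15, adjusted p = 0.15) did not pass. *Ocln* (-0.27 ± 0.15, adjusted p = 0.33), *Slc2a1* (-0.12 ± 0.19, adjusted p = 0.76) and *Slc7a5* (-0.14 ± 0.22, adjusted p = 0.78) did not pass either. *Cldn5* was the one member with a value above 0, 0.42 ± 0.26 (adjusted p = 0.395), and its libraries overlapped, with 1278 to 2169 CPM in the PFC and 1102 to 3098 CPM in the striatum. For the members that did not pass with overlapping libraries, *Ocln* was at 238 to 274 CPM in the PFC and 196 to 240 CPM in the striatum, *Tjp1* at 509 to 728 and 406 to 513 CPM, *Slc2a1* at 1014 to 1959 and 954 to 1563 CPM, *Slc7a5* at 187 to 314 and 184 to 274 CPM, and *Mfsd2a* at 130 to 263 and 63.7 to 176 CPM. The median difference of the members was -0.50, and that of all genes was 0.003.

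With the replicate number within each tissue as a block, 1339 genes were called (12.6%), and *Mfsd2a* joined the 3 members, at -0.65 with an adjusted p of 0.0025 by edgeR. In that fit *Slco1c1* (-0.56, adjusted p = 0.0029) and *Tjp1* (-0.41, adjusted p = 0.024) passed the adjusted p of edgeR but not the fold. Most calls were lost when 1 library was left out, which leaves its group with 1 library that is assumed to vary like the other groups. No member was called without PFC WT replicate 1, striatum WT replicate 1, striatum WT replicate 2 or striatum *Setd1a*+/- replicate 1, where the adjusted p of *Slco1a4* in edgeR was 0.093, 0.12, 0.083 and 0.068 and its difference -0.83, -0.75, -0.90 and -0.71. *Slco1a4* alone was called without striatum *Setd1a*+/- replicate 2, *Slco1a4* and *Abcg2* without PFC *Setd1a*+/- replicate 1, *Slco1a4* and *Abcb1a* without PFC *Setd1a*+/- replicate 2, and *Slco1c1* beside the 3 members without PFC WT replicate 2. Over all genes these fits called 145 to 997.

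**Figure D3:**
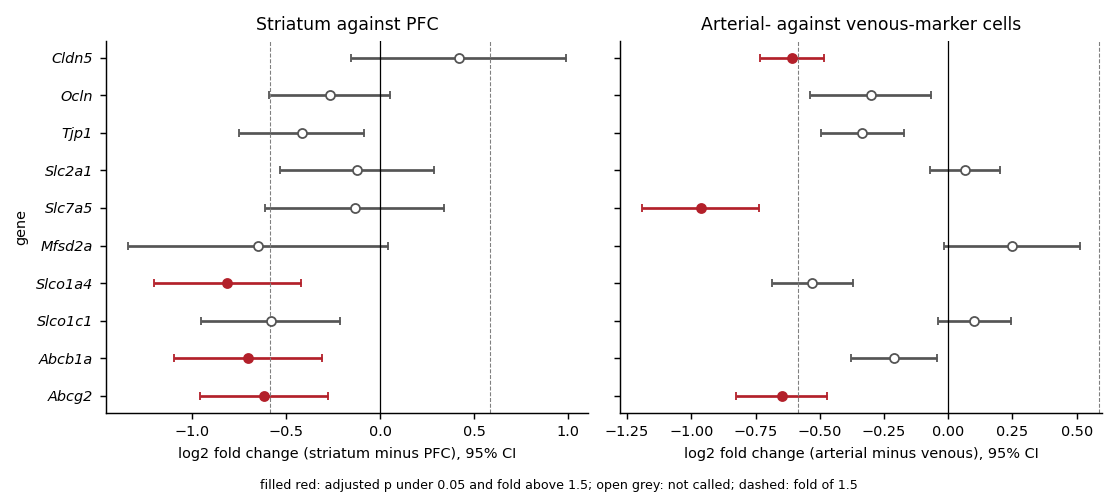
Log2 fold change of each barrier gene with its 95% confidence interval in the endothelial group, striatum minus PFC (left) and arterial- minus venous-marker cells (right). Filled red points were called (adjusted p under 0.05 and FC above 1.5), open grey points were not, and dashed lines mark an FC of 1.5. *Slco1a4*, *Abcb1a* and *Abcg2* were called at the left, and *Cldn5*, *Slc7a5* and *Abcg2* at the right.

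Other barrier genes were read from 4 lists that hold no member. Of 24 transporters tested, 5 fell in the striatum: the cationic amino acid carrier *Slc7a1* (-1.09), the monocarboxylate carriers *Slc16a1* (-1.05) and *Slc16a4* (-0.78), the transferrin receptor *Tfrc* (-1.05) and the iron exporter *Slc40a1* (-0.90). The transporter *Abcc5* rose by 0.92. The median of the transporters was -0.34, and 0.845% of all genes tested were called lower in the striatum. The Wnt receptor gene *Fzd6* fell (-0.59 ± 0.15, adjusted p = 0.043 by edgeR) and was the one gene called among 24 of the Wnt pathway and its regulators, 23 of which were below 0 with a median of -0.39. Of 16 further junction genes, 14 were below 0 with a median of -0.18 and none was called. Over all genes tested between the tissues 49.8% were below 0, and no list was tested as a set. The 2 with the smallest p were *Jam2* (-0.73 ± 0.20, adjusted p = 0.062 by edgeR) and the endothelial cadherin gene *Cdh5* (-0.48 ± 0.14, adjusted p = 0.080). Of 8 genes of vesicle transport and leak none was called, and those with the smallest p were the caveolar coat genes *Cavin1* (0.32) and *Cavin2* (-0.17).

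Markers of other cells moved with tissue too. Of the 14 endothelial markers 1 was called lower, 8 were below 0 and the median was -0.14. The summed neuron markers of the endothelial group were 127 to 350 CPM in the PFC and 496 to 858 CPM in the striatum, and 4 of 8 were called higher there. Oligodendrocyte markers were 136 to 203 against 98.3 to 1434 CPM with 2 of 8 called higher, OPC markers 58.6 to 95.4 against 91.4 to 150 CPM with 3 of 6, astrocyte markers 1667 to 2311 against 1623 to 2683 CPM with 2 of 6, and fibroblast markers 47.1 to 121 against 88.8 to 122 CPM with 1 of 5. Mural, microglial and red blood cell markers had no call. Red blood cell markers ranged from 4865 to 25809 CPM in the PFC and from 14239 to 23954 CPM in the striatum, microglial markers from 73.6 to 302 against 78.3 to 145 CPM, arterial markers from 440 to 548 against 530 to 657 CPM and venous markers from 413 to 623 against 435 to 774 CPM. The 6 markers of choroid plexus and ependyma summed to at most 1.65 CPM in any library. The part of these markers in the tissue difference was not tested. Without the mural-marker cells the same 3 members were called.

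Cells with markers of arterial endothelium had less *Slc7a5*, *Abcg2* and *Cldn5* than cells with markers of venous endothelium. Barrier genes are known to differ along the vascular tree, and the classes were set by genes that are no members. After the mural-marker cells were left out, 605 cells had at least 1 UMI of an arterial list (*Bmx*, *Gkn3*, *Sema3g*, *Vegfc*, *Efnb2*, *Hey1*, *Gja4* and *Gja5*) and none of a venous list (*Slc38a5*, *Nr2f2*, *Ackr1*, *Lcn2* and *Icam1*), 1043 had the reverse, 622 had neither and 526 had both. The last were not used, 207 of 1226 cells in the PFC and 319 of 1570 in the striatum. A class is a range of marker UMIs and not a cell type, and a library gave 15 to 124 arterial-marker, 55 to 184 venous-marker and 28 to 125 cells with neither. Median UMIs per cell were 1745 to 2691, 2089 to 2920 and 1662.5 to 2060 in the 3 classes.

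*Slc7a5* ranged from 64.8 to 223 CPM over the 8 libraries in arterial-marker cells (median 145 CPM) and from 234 to 421 CPM in venous-marker cells (median 342 CPM), and the ranges did not overlap. *Abcg2* was at 296 to 972 CPM (median 651 CPM) in arterial-marker and 826 to 1269 CPM (median 993 CPM) in venous-marker cells. *Cldn5* was at 838 to 2751 CPM (median 1687 CPM) against 1523 to 3985 CPM (median 2549 CPM). Each of the 3 genes was lower in the arterial-marker cells in 8 of 8 libraries. The share of all genes with such a count, or with class ranges that did not overlap, was not computed. The same holds for the counts of libraries below. With the library as a block in edgeR, the difference of arterial- minus venous-marker cells was -0.96 ± 0.11 for *Slc7a5* (adjusted p = 3.6e-09), -0.65 ± 0.09 for *Abcg2* (adjusted p = 1.1e-07) and -0.61 ± 0.06 for *Cldn5* (adjusted p = 5.0e-11). These 3 of 10 members were called lower, against 3.96% of 4121 genes.

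*Slco1a4* (-0.53 ± 0.08, adjusted p = 6.8e-07) and *Tjp1* (-0.33 ± 0.08, adjusted p = 0.0016) were also lower in 8 of 8 libraries and passed the adjusted p of edgeR, with an FC under 1.5. By the adjusted p alone, 5 members were lower, against 8.03% of the genes. *Ocln* (-0.30 ± 0.12, adjusted p = 0.076) and *Abcb1a* (-0.21 ± 0.08, adjusted p = 0.082) did not pass, although *Abcb1a* was lower in 8 of 8 libraries and *Ocln* in 7. *Slc2a1* was at a mean of 1526 CPM in arterial-marker and 1487 CPM in venous-marker cells, a difference of 0.07 with a 95% confidence interval of -0.07 to 0.20. For *Slco1c1* the difference was 0.10 with an interval of -0.04 to 0.24. *Mfsd2a* was higher in arterial-marker cells in 6 of 8 libraries, with a difference of 0.25 ± 0.13 that did not pass (adjusted p = 0.23 by edgeR).

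Cells with neither marker had a mean between those of the classes for *Slc7a5*, *Cldn5*, *Abcg2*, *Slco1a4* and *Abcb1a*, and outside them for the other members. In arterial-marker cells, cells with neither and venous-marker cells, the means were 146, 265 and 335 CPM for *Slc7a5* and 1715, 2220 and 2636 CPM for *Cldn5*. In that order *Abcg2* was at 659, 956 and 1018 CPM, *Slco1a4* at 2470, 3011 and 3534 CPM, and *Abcb1a* at 570, 655 and 699 CPM. Cells with neither can include cells of both classes whose markers were not captured, which was not tested. Against the cells with neither, arterial-marker cells had less *Slc7a5* (-0.66 ± 0.13, adjusted p = 3.9e-04 by edgeR), the one member called, where 2.26% of genes were called lower. *Abcg2* (-0.55 ± 0.09, adjusted p = 3.2e-05 by edgeR) and *Cldn5* (-0.40 ± 0.06, adjusted p = 8.7e-06) were lower in 8 of 8 libraries, against 7 of 8 for *Slc7a5*, with an FC under 1.5. *Slco1a4* (-0.28 ± 0.08, adjusted p = 0.015 by edgeR) was also lower with an FC under 1.5. The summed mural markers stood at 5627 CPM in the arterial-marker cells and 2923 CPM in those with neither, and their part in these differences was not tested. *Mfsd2a* (-0.32), *Abcb1a* (-0.09), *Slco1c1* (-0.08), *Ocln* (0.03), *Tjp1* (0.08) and *Slc2a1* (0.10) did not pass. In venous-marker cells against those with neither, 0 members were called by edgeR, where 4.97% of genes were called (2.4% lower), 7 members had an unadjusted p under 0.05, as had 993 of the 4121 genes, and DESeq2 called 1 member, *Mfsd2a*. Higher in venous-marker cells, with an adjusted p of edgeR under the threshold and an FC under 1.5, were *Tjp1* (0.42 ± 0.08, adjusted p = 4.3e-04), *Cldn5* (0.21 ± 0.06, adjusted p = 0.018) and *Slco1a4* (0.25 ± 0.08, adjusted p = 0.026). *Ocln* (0.34), *Slc7a5* (0.31), *Abcb1a* (0.12), *Abcg2* (0.09), *Slc2a1* (0.04) and *Slco1c1* (-0.18) did not pass. *Mfsd2a* was lower in the venous-marker cells in 8 of 8 libraries, with a mean of 155 CPM against 241 CPM (-0.57 ± 0.13, adjusted p = 0.0022 by edgeR, under the fold).

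**Figure D4:**
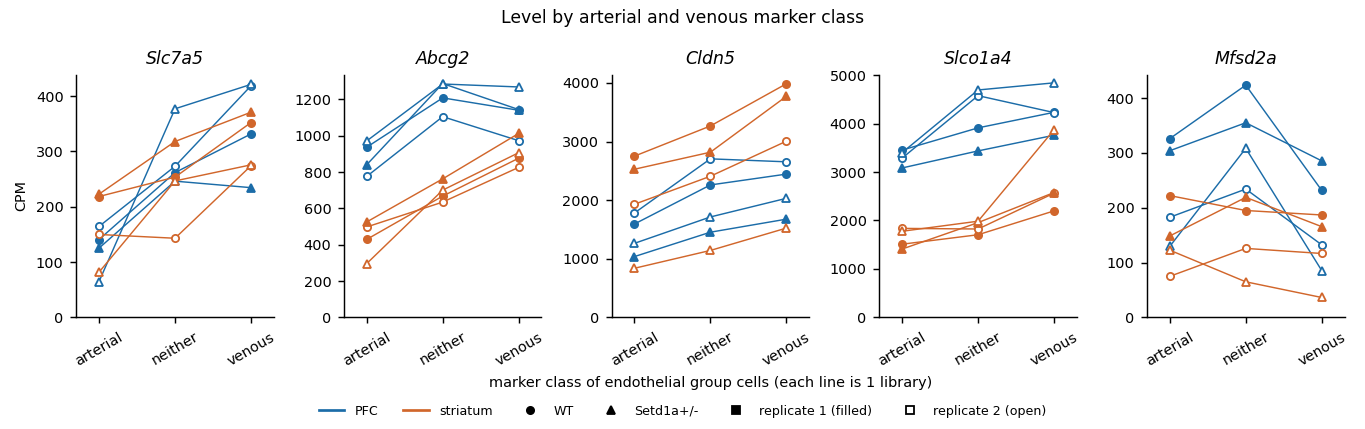
Level of 5 barrier genes in CPM in arterial-marker cells, cells with neither marker and venous-marker cells of the endothelial group, each line 1 library. *Slc7a5*, *Abcg2*, *Cldn5* and *Slco1a4* rise from the arterial to the venous class in 8 of 8 libraries, while *Mfsd2a* is lower in the venous class than in cells with neither marker in 8 of 8.

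The calls between the classes rest in part on 1 library. Without striatum *Setd1a*+/- replicate 2 the FC of *Abcg2* (-0.58, adjusted p = 3.3e-07 by edgeR) and of *Cldn5* (-0.58, adjusted p = 3.8e-10) fell just under 1.5, and *Slc7a5* alone was called (-0.92). Within the PFC libraries *Slc7a5* and *Cldn5* were called and *Abcg2* was at -0.32 (adjusted p = 0.025 by edgeR), and within the striatal libraries *Slc7a5*, *Cldn5*, *Abcg2* (-0.99) and *Slco1a4* (-0.74) were called. Whether the class difference of *Abcg2* differs between the tissues was not tested. Mural markers summed to 5627 CPM (4146 to 6948) in arterial-marker and 3482 CPM (2663 to 3885) in venous-marker cells, and 7 of 10 tested were called higher in the former. The endothelial markers were at 16056 and 14830 CPM with a median difference of -0.02 and 2 of 14 called lower. Neuron markers summed to 641 and 299 CPM in arterial- and venous-marker cells with 2 of 4 tested called higher in the former, astrocyte markers to 1946 and 1385 CPM with 1 of 6, and OPC markers to 85.0 and 53.6 CPM with 1 of 1. The part of these markers in the class difference was not tested.

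Of 17 transporters outside the members, 8 fell in arterial-marker cells: the monocarboxylate carrier *Slc16a1* (-1.80), *Tfrc* (-1.34), the glutamine carrier *Slc38a3* (-1.20), *Slc40a1* (-1.19), the organic anion carrier *Slc22a8* (-1.06), *Slc7a1* (-0.92), *Slc3a2* (-0.67) and *Slco2b1* (-0.65), with a median over the list of -0.58. Over all genes, 3.96% of 4121 were called lower in arterial-marker cells. *Slc3a2* encodes the heavy chain that pairs with the product of *Slc7a5*. The means of *Slc3a2* were 405 CPM in arterial-marker cells, 642 CPM in cells with neither and 677 CPM in venous-marker cells. Of 19 genes of the Wnt pathway and its regulators, the ETS factor gene *Fli1* (-0.82), the receptor gene *Fzd4* (-0.84) and the feedback inhibitor gene *Nkd1* (-0.70) fell and *Sox17* (0.63), a transcription factor gene of arterial endothelium, rose. No gene was called among 8 of vesicle transport and leak, where *Cavin2* (0.33) and *Cav1* (-0.38) had the smallest p values.

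*Setd1a*+/- and WT libraries were compared within each tissue, which is the comparison the study was made for. The study itself tested single cells with DEsingle. It reported endothelial cells and excitatory neurons as the PFC types with the most differing genes. The test here is on UMIs summed per library, 2 libraries against 2, so its counts of calls and those of the study come from unlike tests. No member was called in the endothelial group of the PFC, and neither was any of the 8777 genes tested (0%), of which 154 had an unadjusted p under 0.05 in edgeR. DESeq2 called 0 genes as well. In the striatum, where the FC had to be above 2, 0 of 10358 genes were called (0%) by edgeR and 1 by DESeq2, and 229 had an unadjusted p under 0.05. With 2 libraries a group, a p that misses the threshold does not show that the genotypes are alike. On simulated counts, the adjusted p of this test passed for 0% of the genes changed 2-fold in the PFC and 13.3% in the striatum. Those genes were drawn at random from all genes tested, and the rate at the levels of the members was not computed.

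For 4 of 10 members both *Setd1a*+/- libraries lay above or below both WT libraries in the PFC, in different directions, and the same held for 27.8% of the genes tested. *Slc2a1* stood in the WT libraries at 1269 and 1014 CPM and in the *Setd1a*+/- libraries at 1959 and 1438 CPM, a difference of 0.61 ± 0.26 (adjusted p = 0.999 by edgeR, unadjusted 0.043). *Cldn5* stood at 1914 and 2169 against 1278 and 1602 CPM in the same order (-0.45 ± 0.26), *Tjp1* at 728 and 576 against 568 and 509 CPM (-0.23 ± 0.23), and *Abcg2* at 969 and 840 against 972 and 1153 CPM (0.28 ± 0.25). The other 6 members were *Abcb1a* (-0.31), *Slc7a5* (-0.07), *Slco1c1* (-0.02), *Mfsd2a* (0.02), *Slco1a4* (0.05) and *Ocln* (0.07). In the striatum *Cldn5* stood at 3098 and 2301 against 2732 and 1102 CPM (-0.46 ± 0.36). In both tissues its level was thus lower in the *Setd1a*+/- library of each same-numbered pair. The share of all genes with that order was not computed. In the same order, the summed endothelial markers stood at 15063 and 13873 against 14318 and 12390.5 CPM in the PFC. In the striatum they stood at 15332 and 13913 against 15608 and 10347 CPM. Their part in the order of *Cldn5* was not tested. Other striatal differences were *Mfsd2a* (-0.24), *Slc7a5* (0.02), *Slc2a1* (0.02), *Abcg2* (0.03), *Abcb1a* (0.11), *Ocln* (0.16), *Slco1a4* (0.19) and *Tjp1* (0.21). The groups did not overlap there for 1 of 10 members, *Slco1c1*, at 563 and 601 against 553 and 501 CPM (-0.11 ± 0.18), against 30.6% of the genes tested.

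Where 1 of the 2 *Setd1a*+/- libraries is left out, the group holds 1 library and the spread comes from the WT libraries alone. Without striatum *Setd1a*+/- replicate 1, *Cldn5* (-1.27, adjusted p = 7.5e-07 by edgeR) and *Mfsd2a* (-1.12, adjusted p = 0.018) were called in the striatum, and without replicate 2 of that group they were at 0.04 (adjusted p = 0.99) and 0.18 (adjusted p = 0.99). Over the other alternatives the adjusted p was between 0.088 and 1.00 for *Cldn5* and between 0.813 and 1.00 for *Mfsd2a*. With the replicate block 16 genes were called in the PFC and 25 in the striatum, none of them a member, and *Cldn5* was at -0.58 in the striatum (adjusted p = 0.088 by edgeR). Over both tissues, 0 of 10652 genes differed by genotype (0%, 265 with an unadjusted p under 0.05) and 0 had a genotype difference that differed between the tissues (0%, 221 with an unadjusted p under 0.05) in edgeR, and DESeq2 gave 0 for both. Over both tissues *Cldn5* was at -0.47 ± 0.26 (adjusted p = 1.00 by edgeR), *Slc2a1* at 0.30, *Abcg2* at 0.14, *Slco1a4* at 0.11, *Ocln* at 0.10, *Tjp1* at -0.03, *Slc7a5* at -0.04, *Slco1c1* at -0.08, *Abcb1a* at -0.11 and *Mfsd2a* at -0.14. The genotype difference of the striatum minus that of the PFC was -0.57 for *Slc2a1*, -0.26 for *Mfsd2a*, -0.24 for *Abcg2*, -0.07 for *Slco1c1*, 0.01 for *Cldn5*, 0.10 for *Slc7a5*, 0.11 for *Ocln*, 0.16 for *Slco1a4*, 0.44 for *Abcb1a* and 0.46 for *Tjp1*, with SEs of 0.29 to 0.63.

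No gene of the 4 lists was called between genotypes in either tissue. The median difference in the PFC was -0.04 over 16 junction genes, 0.01 over 22 transporters, -0.11 over 24 genes of the Wnt pathway and its regulators and 0.04 over 8 of vesicle transport and leak. In the striatum it was 0.06, -0.01, 0.08 and 0.09 over 16, 24, 24 and 8 genes. The smallest p values belonged to *Cgnl1* (-0.49) and *Marveld2* (-0.68), *Abcc5* (-0.86) and *Tfrc* (-0.46), *Erg* (-1.79) and *Fzd4* (0.52), and *Rab5a* (0.44) and *Dnm2* (-0.44) in the lists of the PFC. In the junction, transporter and vesicle lists of the striatum they belonged to *Jam2* (-0.35) and *Magi1* (0.53), *Slc3a2* (-0.49) and *Slc22a8* (-0.39), and *Picalm* (0.46) and *Cav1* (0.21).

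Outside the endothelial group, 16 annotated types were tested between genotypes, 7 in the PFC and 9 in the striatum. None of the 70 pairs of a member and a type that could be tested was called, and none had an unadjusted p under 0.05 by edgeR, where DESeq2 and the replicate block called no member either. Over all genes 0 of 42368 pairs were called in the PFC (0%) and 4 of 63121 in the striatum (0.00634%). The 18 pairs with at least 20 UMIs in every library lay between -0.26 and 0.76. The highest was *Slc2a1* in PFC astrocytes, at a mean of 104 CPM in WT and 207 CPM in *Setd1a*+/- libraries (0.76 ± 0.47, adjusted p = 1.00 by edgeR). It was called without PFC *Setd1a*+/- replicate 2 (1.49, adjusted p = 0.039 by edgeR with 1 *Setd1a*+/- library of 63 astrocytes and the spread of the WT libraries alone, against 0.989 to 1.00 over the other alternatives) and was -0.18 without replicate 1. *Slco1c1* in PFC astrocytes was at 422 and 458 CPM (0.09 ± 0.31), *Mfsd2a* in PFC OPCs at 239 and 245 CPM (0.05 ± 0.29), and *Abcg2* in PFC OPCs at 91.5 and 88.2 CPM (-0.07 ± 0.34).

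*Mfsd2a* was singled out after its values were seen, because its libraries separated by replicate number. In the endothelial group replicate 1 had 261 (WT) and 263 CPM (*Setd1a*+/-) in the PFC and 176 and 156 CPM in the striatum, and replicate 2 had 140 and 130 CPM in the PFC and 105 and 63.7 CPM in the striatum. Replicate 2 was below replicate 1 in each of the 4 pairs, and the 4 libraries of one number did not overlap those of the other. The share of all genes that separate by replicate number in this way was not computed. In an added edgeR fit over the 8 libraries with tissue and genotype as terms, the difference of replicate 2 minus replicate 1 was -0.94 ± 0.15 (adjusted p = 0.0496). These same values prompted the fit, so for *Mfsd2a* its p restates the separation and does not test it. Of the 10652 genes 10 were called, 9 of them higher in replicate 2, and *Mfsd2a* was the 1 called lower (0.00939%). Without the mural-marker cells 26 genes were called, *Mfsd2a* again among them.

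**Figure D5:**
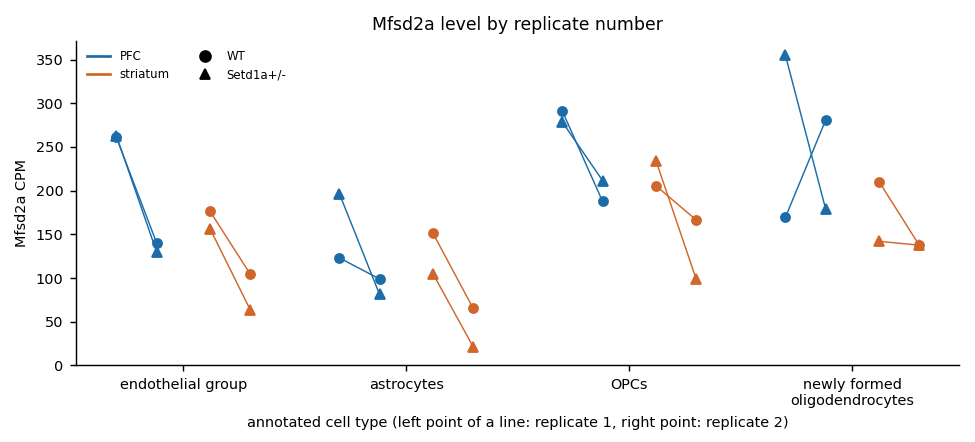
*Mfsd2a* level in CPM in 4 annotated cell types, with replicate 1 at the left and replicate 2 at the right of each line, circles for WT and triangles for *Setd1a*+/- libraries. The 4 lines fall in the endothelial group, astrocytes and OPCs, and rise in 1 of 4 cases in newly formed oligodendrocytes.

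The same direction was seen in all 4 pairs in astrocytes (-1.01 ± 0.28, adjusted p = 0.25 by edgeR) and OPCs (-0.55 ± 0.18, adjusted p = 0.45), and newly formed oligodendrocytes were at -0.16 ± 0.29 (adjusted p = 0.93). The lowest astrocyte value rests on 2 UMIs in the 31 cells of striatum *Setd1a*+/- replicate 2. No other member was called between replicate numbers in the endothelial group, where *Slc2a1* (-0.34 ± 0.14, adjusted p = 0.36 by edgeR) and *Slco1a4* (0.31 ± 0.13, adjusted p = 0.37) had the next smallest p values. *Cldn5* (-0.27), *Slco1c1* (-0.21), *Tjp1* (-0.15), *Abcb1a* (-0.12), *Abcg2* (0.0048), *Slc7a5* (0.02) and *Ocln* (0.12) did not pass either. The labels do not say what the 2 replicates differ in, or whether a number means the same mice or day in both tissues.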

How the data were processed

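Single-cell RNA sequencing libraries (10x Chromium) were made from the PFC and the striatum, 2 of each genotype per tissue. Per the submitters' processing notes, the authors processed reads with Cell Ranger 3.0.2 on mm10 and cells with Seurat 3.2.0. The deposited matrices hold raw UMI counts for every droplet barcode, without normalization. The authors' cell tables gave each cell's library and type, after removal of cells with few genes or a high mitochondrial share, and doublet treatment was not given in the sources used here. Barcodes and gene names joined the counts to these labels. The authors' gene-by-cell tables from Seurat were not used.

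Counts were summed per library and annotated type (at least 10 cells in every library). Sums were tested with edgeR 4.0.16 (R 4.3.3) by the quasi-likelihood test with TMM factors, filterByExpr (minimum count 10) and Benjamini-Hochberg adjustment over all genes tested, in the groups compared (genotype within a tissue) or over all 4 groups (tissue, genotype over both tissues and its interaction). A call needed an adjusted p under 0.05 and a fold above 1.5, or above 2 for genotype in the striatum. Between marker classes the library was the block. DESeq2 1.42.0 was an alternative, as were library size alone, no filter, no fold cutoff, leaving out mural-marker cells, stricter classes and leaving out each library. The replicate fits of *Mfsd2a* were added after the data were seen. Free RNA was read from barcodes of at most 100 UMIs. Shares of cells with a UMI were also computed after thinning to 1000 UMIs. The steps were tested on simulated counts in which 200 genes, drawn at random from those tested, were changed by a known fold. Calls were by the adjusted p alone. Of those changed 1.5-, 2- and 4-fold, the genotype test called 0%, 0% and 76.9% in the PFC. In the striatum it called 0%, 13.3% and 79.8%. The tissue test called 0%, 33.0% and 96.0%, and the test between marker classes 63.9%, 98.4% and 100%.

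Replicate numbers were taken to pair the samples, since the study's methods put 1 WT and 1 *Setd1a*+/- library in each biological replicate. The correlation of deviations between same-numbered libraries was 0.392 over 8777 genes in the PFC and 0.351 over 10358 genes in the striatum. As the study's own tests, made on single cells, had no block, the block was the alternative.

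The 10 members and all lists were chosen with earlier results of these data known. The text names all members in the endothelial comparisons. In other types it names from those with at least 20 UMIs in every library and any that were called. Of the lists it names the called genes, at most 10 by p, or otherwise the 2 of smallest p, and for likeness the gene of highest correlation among genes of at least 20 CPM in 1 type. Gene positions come from GENCODE vM21 and promoters from RefSeq. Some results for single genes of the lists are not reported here.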

Additional observations from a re-analysis of the deposited data

How the results depend on the processing

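Counts of calls and log2 differences moved as follows, and the cause was not tested unless the setting itself gives fewer libraries or more genes. The 3 members called between tissues were called by DESeq2, with library size alone, with no fold cutoff and without mural-marker cells, and the 3 called between marker classes by DESeq2, with library size alone and with at least 2 UMIs of a list. With the replicate block 16 genes were called by genotype in the PFC, 25 in the striatum, 3 over both tissues, 1 by the interaction and 64 in other types against 4 without it, with no member among them, and 1339 between tissues against 580. The paired fit changed no member's call other than that of *Mfsd2a* between tissues. With no filter on low counts the counts were 7, 19, 11, 5, 147 and 1448 in the same order, with 5 members between tissues, and 661 between marker classes against 353. With no fold cutoff 646 genes and 5 members were called between marker classes. DESeq2 called 1 gene by genotype in the striatum. The replicate comparison gave 26 genes without mural-marker cells against 10. When each library was left out, 1 to 42 genes were called by genotype in the PFC, 8 to 102 in the striatum (members 0 to 2), 0 to 1 by the interaction, 28 to 300 in other types (members 0 to 1) and 145 to 997 between tissues (members 0 to 4), and 1 to 3 members between marker classes. Differences that changed sign were not called in the fit reported. By genotype in the PFC they were *Ocln* (-0.035 to 0.17 over libraries left out), *Slc7a5* (-0.52 to 0.31 over libraries left out), *Mfsd2a* (-0.014 with library size alone, -0.55 to 0.54 over libraries left out), *Slco1a4* (-0.0071 with library size alone, -0.20 to 0.27 over libraries left out), *Slco1c1* (0.0040 with the replicate block, -0.28 to 0.32 over libraries left out) and *Abcb1a* (-0.63 to 0.11 over libraries left out). By genotype in the striatum they were *Cldn5* (-1.27 to 0.045 over libraries left out), *Slc2a1* (-0.0098 with library size alone, -0.00038 with no filter on low counts, -0.016 with the replicate block, -0.38 to 0.33 over libraries left out), *Slc7a5* (-0.014 with library size alone, -0.0063 with no filter on low counts, -0.0063 with the replicate block, -0.32 to 0.25 over libraries left out), *Mfsd2a* (-1.12 to 0.18 over libraries left out), *Slco1a4* (-0.027 to 0.38 over libraries left out) and *Abcg2* (-0.0059 with library size alone, -0.00042 with no filter on low counts, -0.086 to 0.12 over libraries left out). Between tissues they were *Slc2a1* (-0.32 to 0.027 over libraries left out) and *Slc7a5* (-0.35 to 0.093 over libraries left out). Between marker classes they were *Slc2a1* (-0.026 with no filter on low counts, -0.059 in the striatum alone) and *Slco1c1* (-0.043 in the striatum alone). In other types they were *Slc2a1* in PFC astrocytes (-0.18 to 1.49 over libraries left out). A library held 6 to 29 UMIs of *Setd1a* in the endothelial group, too few to compare genotypes there.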
